A study of Mus musculus with 7 samples.

Results

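The DEAD and DEAH box helicase mRNAs are the transcripts of the mouse genes named Ddx or Dhx with a number. They were chosen by symbol alone: every nuclear protein-coding gene of the GENCODE M21 annotation whose symbol starts with Ddx or Dhx followed by a number was taken, which gave 53 genes, 37 Ddx and 16 Dhx, of 21938 nuclear protein-coding genes. Their reads came from RNA immunoprecipitation sequencing (RIP-seq), the sequencing of RNA recovered from a lysate along with a protein that an antibody captures. The antibody was raised against Ezh2, the histone methyltransferase of Polycomb repressive complex PRC2, and the lysates were made from nuclei of mouse embryonic stem cells kept in medium with LIF. The labels describe 5 anti-Ezh2 libraries from cells of strain 129X(M.castaneusX129) with no mutation named, 1 anti-Ezh2 library from Ezh2-null cells of strain M.musculus, and 1 IgG library from the same strain as those 5. Among the 5, 1 is a technical replicate, 1 is a biological replicate, and 2 are deeper runs over 2 lanes each, 1 of them of that biological replicate.

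The measurements are read sequences with their counts, in 1 table of 34072479 reads whose library, out of the 7, no header or label gives. The name under which it was deposited was not used to assign it, and it may hold fewer than all 7. It was read as 1 pool of unknown make-up, so the values below have no replicate spread, none is an enrichment over IgG or Ezh2-null cells, and no test between groups was made. Intervals are exact 95% intervals that cover counting error only, since the table does not tell PCR copies apart. Of the 31529044 reads with enough bases for a search, 36.06% were given to 1 gene, and 5477007 were sense reads of nuclear protein-coding genes, where sense means the orientation of the mRNA. Among 8 stem cell marker genes 7 had at least 50 sense reads, the highest being L1td1 with 29926. All 6 fibroblast markers did too, with 327 to 5268 reads, and the part of other cells in the helicase values was not tested. In such a pool, more cells of a type and more RNA per cell cannot be told apart.

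DEAD and DEAH box proteins use ATP to pull apart RNA duplexes or to strip proteins from RNA, and are named after a short motif in their ATPase core. That core is a pair of RecA-like domains shared by the whole family, while the stretches before and after it differ between members and often direct each helicase to its own substrate. In the nucleus their best known work is the stepwise remodelling of the spliceosome and the assembly of ribosomal subunits in the nucleolus. Other members act in mRNA export, translation, mRNA decay and the sensing of foreign RNA.

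The reads of the most abundant helicase mRNAs piled up at a few places, and the sequence at the highest of them is shown for the 8 members with most sense reads whose highest place lay in coding sequence. Each line gives 30 bases of the mRNA, 5′ to 3′, in DNA letters and read from GRCm38: 24 bases that end at the most frequent start position of the reads, and the 6 bases beyond it, which the leading bases of the read cover. A start position is the mRNA base that the first matched base of a read stands for. Capitals mark the longest run of purines, A or G, in the window.
Ddx23: caagtctgtAGAGAGGGAAcggcggcacaa
Ddx21: gaagatGAAGAAAGGGAAAGAAGcaagcgg
Ddx1: agatagtgtatgaaactctGAAAGAccaac
Ddx5: ggtgtGGAAAtctgtattgcaacacctgga
Ddx10: gtggccacagattcAGAAAtgtgctataaa
Dhx29: cctacgtaccGGGAtgtttggctggagtgg
Ddx47: ggttgacAAGAtcctcaaagtgattccccg
Ddx3x: tgattcAAGAGGGAAGtctagcttctttgg
The windows ranged from almost pure purine to an even mixture. In Ddx21 the purine run covered 17 bases and the window was 90.0% purine. In Ddx23 the run was 10 bases and the window 70.0% purine. Ddx3x also had a run of 10 bases, in a window of 53.3% purine. The windows of Ddx5, Ddx10, Dhx29 and Ddx47 held no purine run longer than 5 bases, and 50% to 60% purine.

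The windows of Ddx23, Ddx5 and Ddx47 cross an exon junction. In Ddx23 and Ddx47 the matched sequence is thus that of spliced RNA. Processed pseudogenes, which lack introns, shared other reads with Ddx5, so splicing is not read from its window. In Ddx23 the start position lies in exon 3 of 17, in Ddx5 in exon 7 of 13, and in Ddx47 in exon 6 of 12. The other windows are continuous in the genome and lie in coding exons: Ddx21 at chr10:62598344-62598373 on the minus strand in exon 2 of 15, Ddx1 at chr12:13243905-13243934 on the minus strand in exon 5 of 26, and Ddx10 at chr9:53157292-53157321 on the minus strand in exon 15 of 18. That of Dhx29 is at chr13:112946784-112946813 on the plus strand in exon 11 of 27, and that of Ddx3x at chrX:13286110-13286139 on the plus strand in exon 4 of 17.

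Most helicase mRNAs were present in the pool, at levels that differed widely. A sense read was found for 72.2% of all 21938 nuclear protein-coding genes, and at least 50 for 29.1%. Of the 53 helicase genes, 52 had a sense read and 36 had at least 50 (67.9%). Their median level was 0.576 RPKM, against 0.0850 RPKM for the other nuclear protein-coding genes, where RPKM is the usual measure of reads by exon length and depth, taken here from sense reads, merged exons and the searched reads as total. Together they held 60410 sense reads, or 1.10% of those of nuclear protein-coding genes. The highest member alone held 37.1% of these reads, the 5 highest 71.2% and the 10 highest 85.4%. Without the highest, Ddx23, the sum was 37981 reads, or 0.694% of the coding reads.

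**Figure D1:**
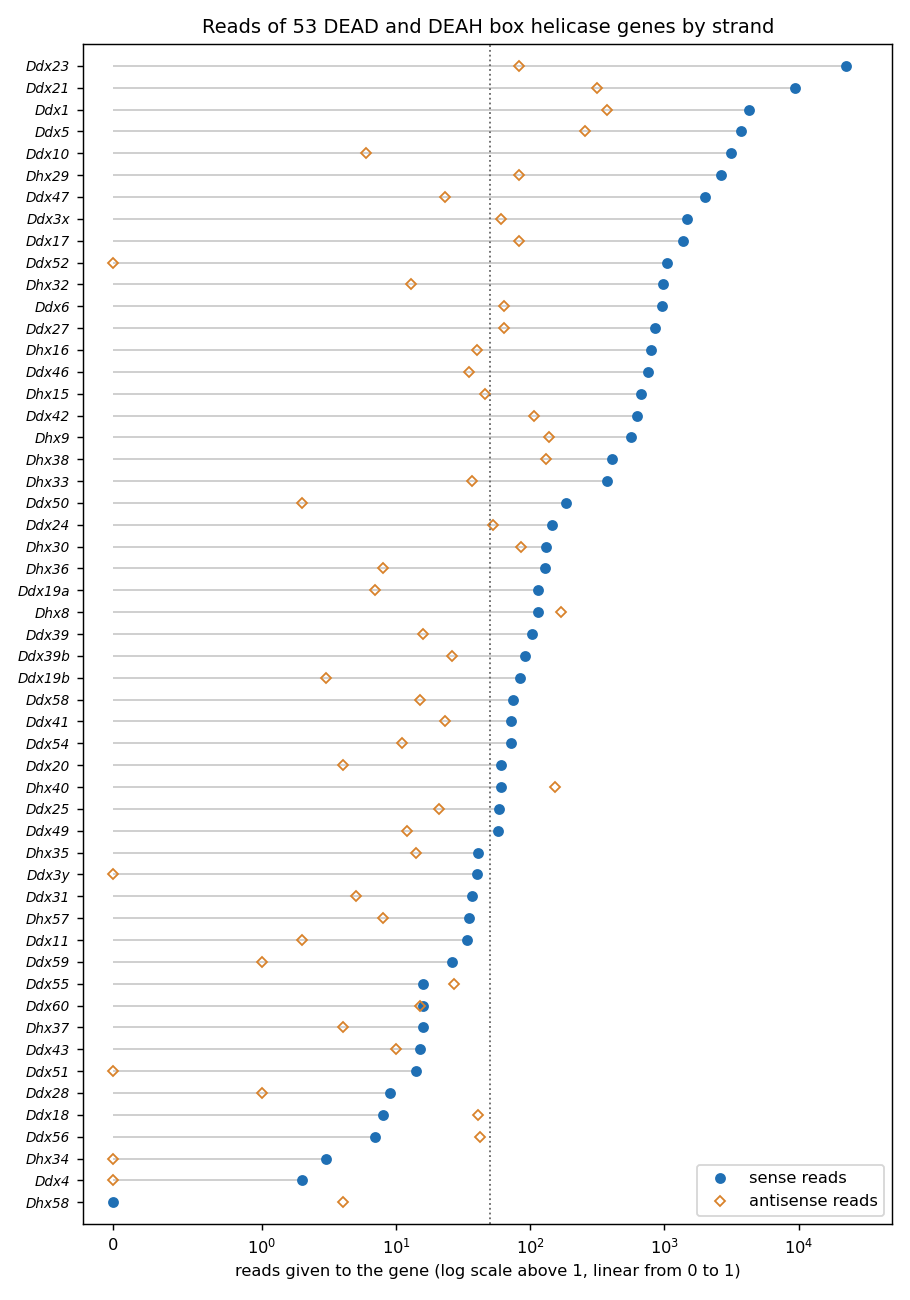
Sense reads of the helicase genes on a logarithmic axis. Ddx23 stands highest with 22429 reads, and spliceosome, ribosome and translation helicases all have members above 1000 reads.

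Helicases of the spliceosome held the largest share of the reads, through Ddx23. Of 13 such genes 12 had at least 50 sense reads, and together they had 31214 reads, 51.7% of the helicase total. Without Ddx23 they had 8785 of 37981 reads (23.1%), below ribosome biogenesis (45.4%) and translation, export and decay (27.3%). Ddx23, on chromosome 15 at 98645134 to 98662894 on the minus strand (GRCm38), encodes the counterpart of yeast Prp28, which frees the 5′ splice site from U1. It had 22429 reads (22136 to 22724), 114.2 RPKM, and stood 24th of all nuclear protein-coding genes by reads. Its reads came from 396 start positions and 6599 distinct sequences. Ddx5 and Ddx17, close relatives that act in splicing and as partners of transcription factors, had 3736 reads at 20.5 RPKM and 1380 reads at 5.73 RPKM. The counterparts of the yeast Prp helicases that drive the later splicing steps were read far less: Dhx16 (Prp2) had 792 reads, Dhx15 (Prp43) 673, Dhx38 (Prp16) 406 and Dhx8 (Prp22) 114. Ddx46, the counterpart of Prp5 that acts in branch site recognition, had 753 reads, and Ddx42 had 624. Ddx39 and Ddx39b, close relatives that couple splicing to mRNA export, had 103 and 91 reads, and Ddx41 had 72. Dhx35 alone of this group stayed below 50, with 41 reads.

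Ribosome biogenesis helicases came next, with 17230 reads (28.5%), and 9 of 15 genes at 50 reads or more. Ddx21, a nucleolar helicase that binds ribosomal RNA and takes part in its transcription and processing, had 9460 reads (9270 to 9653) at 57.96 RPKM, from 265 start positions and 1918 distinct sequences. It lies on chromosome 10 at 62580251 to 62602281 on the minus strand. Ddx10, Ddx47 and Ddx52, whose yeast counterparts work on the small ribosomal subunit, had 3109, 2014 and 1048 reads, or 31.5, 9.60 and 9.98 RPKM. Ddx10 thus stood above Ddx5 on this per-length scale and below it in reads. That order depends on the length used, here merged exons of 5775 bases in Ddx5 and 3128 in Ddx10. Their coding transcripts with most sense reads had 3559 and 3128 bases. In Ddx47 the 2 lengths were 6652 and 1764 bases. For Ddx5 another 2960 reads matched other genes equally well and were left out. Ddx27 had 856 reads, Dhx33 371, Ddx24 145, Ddx54 72 and Ddx49 57. The other 6 genes of the group had 7 to 37 reads, from Ddx56 to Ddx31.

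Helicases of translation, export, decay and messenger ribonucleoprotein particles had 10351 reads (17.1%), and 9 of 11 genes reached 50. Ddx1, part of the tRNA ligase complex and of RNA transport granules, had 4281 reads (4154 to 4411) at 26.7 RPKM. Dhx29, which binds the small ribosomal subunit and helps it through structured leaders, had 2648 reads at 13.97 RPKM. Ddx3x, an X-linked helicase of translation initiation, had 1476 reads at 8.87 RPKM, whereas its Y-linked relative Ddx3y had 40. Ddx6, which acts in decapping and translational repression, had 955 reads, and Dhx9, also known as RNA helicase A, had 561. Dhx36, which unwinds G-quadruplexes, had 129 reads. Ddx19a and Ddx19b, which act in export at the nuclear pore, had 114 and 84, Ddx20 had 60 and Dhx34 had 3.

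Helicases with a narrower range of action had few reads. Of the germ cell helicases, Ddx4, the mouse Vasa, had 2 reads, Ddx43 had 15 and Ddx25 had 58. The RNA sensors gave 74 reads for Ddx58, known as RIG-I, and 16 for Ddx60. Dhx58 was the member with no sense read, with an interval that reaches 3.69 reads, and had 4 antisense reads. The mitochondrial helicases Dhx30 and Ddx28 had 131 and 9 reads, and the DNA helicase gene Ddx11 had 34. Of the 5 genes placed in no role, Dhx32 had 971 reads, Ddx50 184, Dhx40 60, Dhx57 35 and Ddx59 26. For comparison, 14 of 23 other RNA helicase genes of the annotation had at least 50 reads (60.9%), with a median of 0.411 RPKM. The highest of those were Eif4a2 with 5790 reads and Dqx1 with 2496.

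Read starts along single mRNAs were concentrated within short stretches. In Ddx23 the highest start position, base 215 of the coding sequence counting the A of the start codon as 1, had 3778 reads, or 16.8% (16.4 to 17.3) of the gene's reads, from 803 distinct sequences. The positions within 25 bases of it held 12913 reads, 57.6%. The next separate peak of Ddx23, at coding base 116, had 1182 reads. In Ddx21 coding base 629 had 2318 reads, 24.5% (23.6 to 25.4), and with 25 bases either side 4632 reads, 48.96%. Its next peaks, at coding bases 496 and 730, had 662 and 318 reads and lay in the same exon. The main peaks of Ddx23 thus lay nearer the start codon than those of Ddx21.

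Other members had a single dominant place. Ddx1 had 76.5% of its reads within 25 bases of coding base 208, and Dhx29 74.1% within 25 bases of coding base 1395. In Dhx32 the same distance around coding base 185 held 92.9% of the reads. Ddx47 had 1037 of its 2014 reads, 51.5%, at the single coding base 584. In Ddx10 the reads were spread more widely: its highest place, coding base 2129, had 161 reads (5.18%) and its surroundings 22.0%. In Ddx5 the highest place, coding base 672, had 624 reads (16.7%) and its surroundings 66.3%. Ddx3x, at coding base 251, had 232 reads (15.7%) there and 20.3% within 25 bases, and its second peak, at coding base 550, had 116 reads. In Ddx52 coding base 1033 had 246 reads. The highest position of Ddx17 had 60 reads (4.35%), from 16 distinct sequences, the lowest share at a single position among the 10 most-read members.

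Among the less abundant spliceosome helicases, the highest position was coding base 551 in Ddx46 with 67 reads, 653 in Dhx16 with 160, 449 in Dhx38 with 40, 629 in Dhx8 with 25 and 2406 in Ddx42 with 44. In Ddx27 it was coding base 472 with 75 reads, and in Dhx9 coding base 1383 with 52. Across the 36 members with at least 50 reads the median share at the highest position was 17.5%, against 21.7% in the other coding genes, so the helicase median was the lower.

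**Figure D2:**
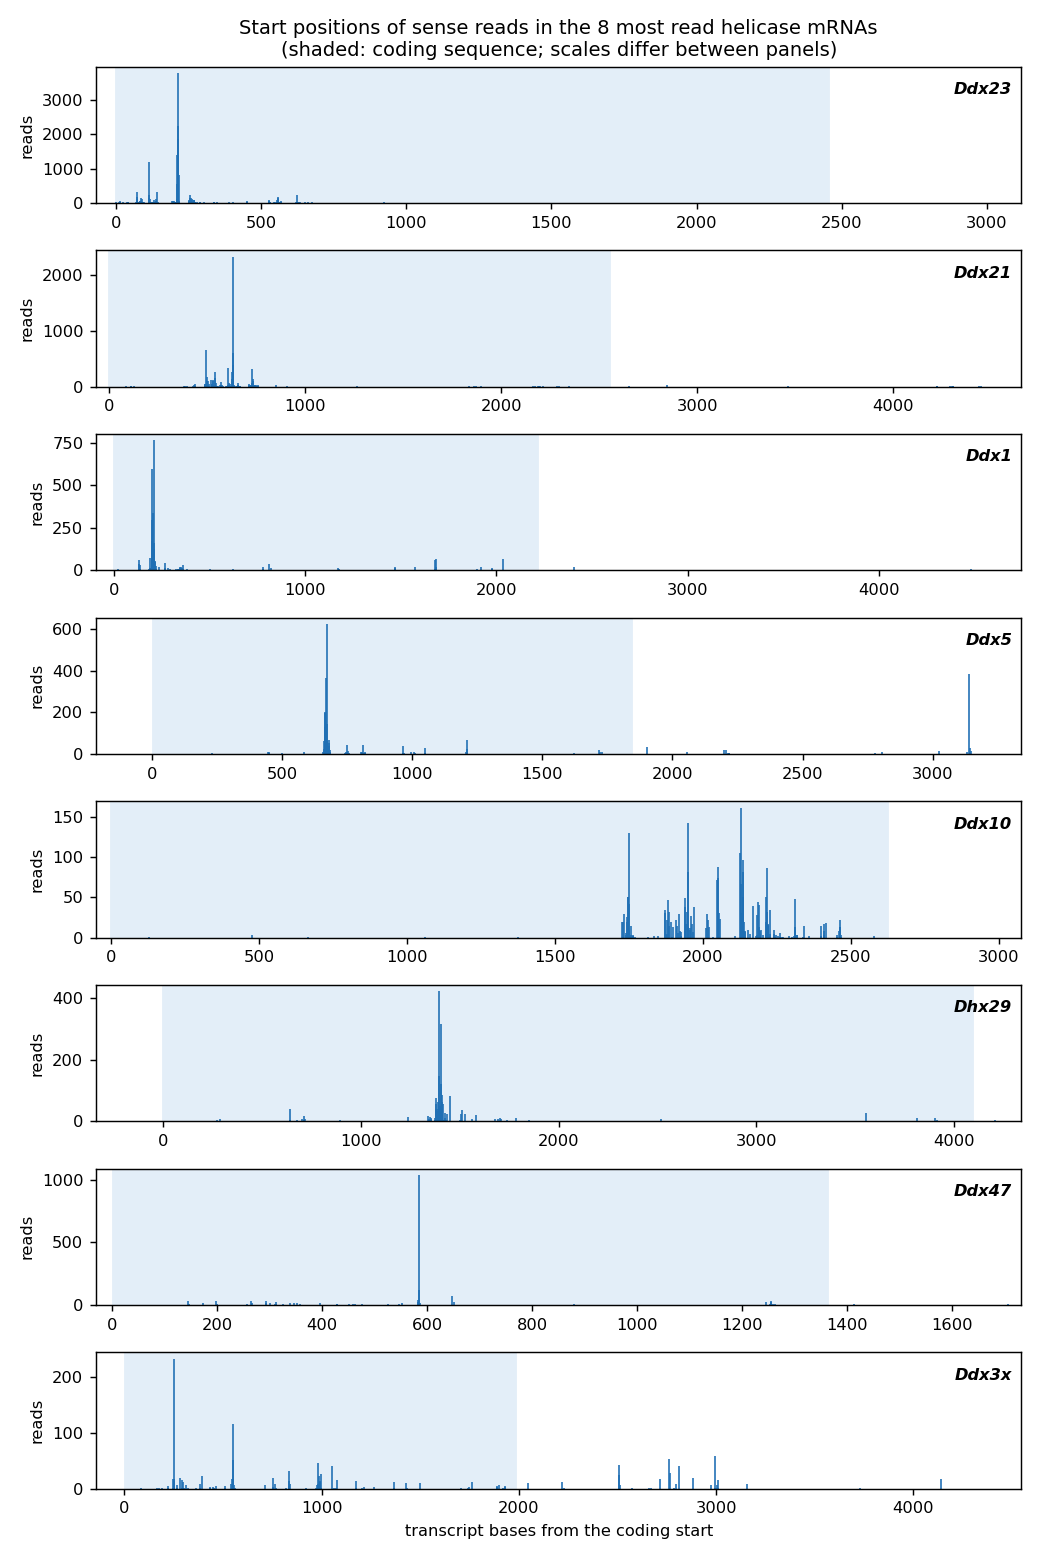
Sense reads along the mRNAs of the most-read helicase genes, by distance of the start position from the coding start in bases. In Ddx23 and Ddx1 the tallest peak stands near the start codon, and in Ddx10 the reads lie toward the end of the coding sequence.

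The highest start position lay in coding sequence in 30 of the 36 members (83.3%), whereas this held for 54.1% of all nuclear protein-coding genes with at least 50 sense reads. It lay within 300 bases of the coding start in 8 of the 36 (22.2%), and in 11% of all such genes. These 8 were Ddx23 at coding base 215, Ddx1 at 208, Ddx3x at 251, Dhx32 at 185, Dhx15 at 140, Ddx19a at 64, Ddx54 at 214, and Dhx30 at 10 bases upstream of the start codon. In Ddx6, Dhx33 and Ddx19b it lay in the 3′ untranslated region. In Ddx17 and Ddx24 it was not on the coding transcript chosen for the gene. Genes of this last kind stayed in the totals of both shares, counted as neither coding nor near the start. A 30-base window on the chosen transcript could be read in 34 of the 36 members and in 5591 of the 6345 other genes. In Ddx25 nearly all reads, 55 of 58, started at 1 position, the last base of the stop codon.

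Coding sequence held 93.2% (92.99 to 93.4) of all helicase sense reads, against 78.9% of the sense reads of other coding genes, and 89.3% with Ddx23 left out. The 3′ untranslated region held 5.57% of helicase reads, against 15.0% in the other genes. The regions also differed in length, since coding sequence made up 60.3% of the transcript length of the 36 helicases and 49.4% of that of the other genes with at least 50 reads. In the median helicase gene 93.4% of reads were coding, and in the median other gene 62.7%. Single members went the other way. Ddx6 had 887 of 955 reads (92.9%) and Dhx33 342 of 371 reads (92.2%) in the 3′ untranslated region. In Ddx17 697 reads (50.5%) lay there, in Ddx19b 65.5%, in Ddx3x 26.2% and in Ddx5 15.8%, while every one of the 3109 Ddx10 reads was coding.

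**Figure D3:**
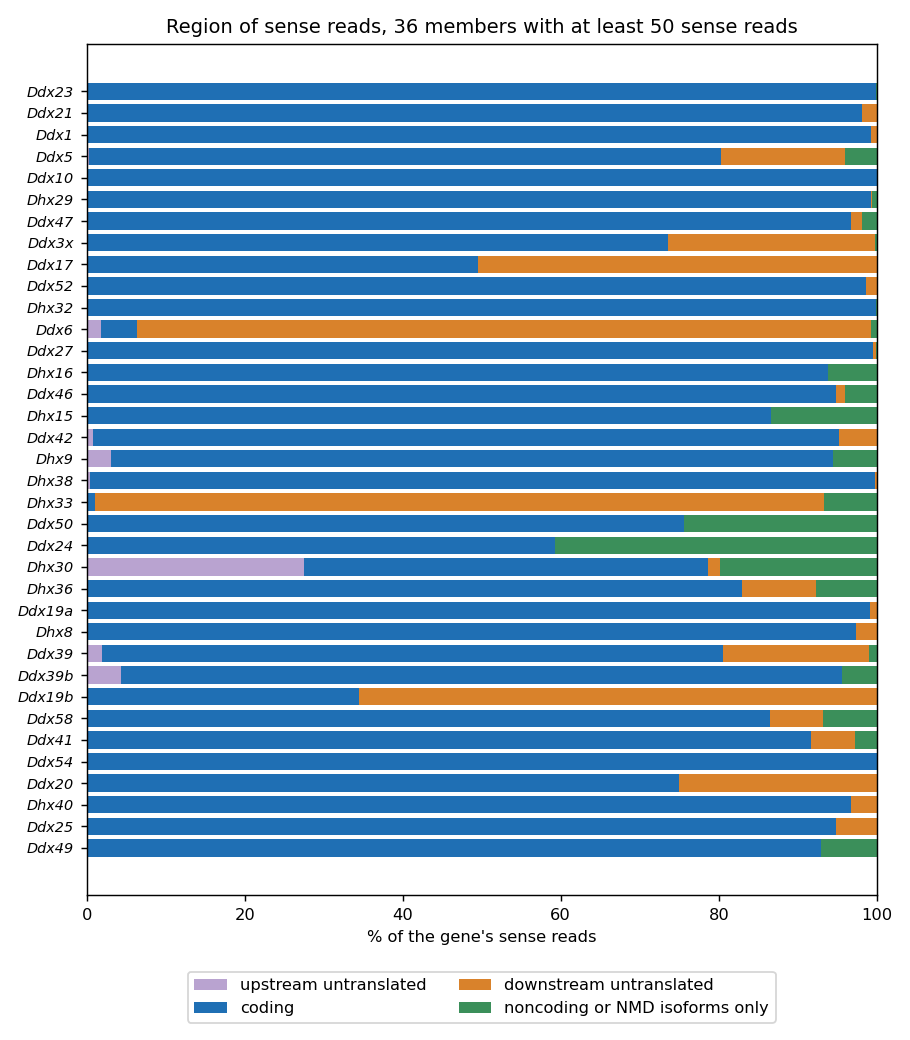
Share of sense reads, in percent, in coding sequence, untranslated regions and noncoding isoforms, for helicase genes with at least 50 sense reads. Ddx6 and Dhx33 are mostly 3′ untranslated, and most other members are mostly coding.

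Reads that lay only on isoforms annotated as retained introns were 0.955% of helicase reads, against 3.60% in other coding genes. Single members varied: 11 of the 36 with at least 50 sense reads had a share above that of the other genes, and 15 had no such read. The 3.60% is a share of pooled reads. Matching counts of other genes were not taken, so the counts of members have no background beside them. The highest shares were those of Ddx24 with 59 reads (40.7%), Ddx50 with 45 (24.5%), Dhx30 with 26 (19.9%) and Dhx15 with 90 (13.4%). Dhx36, Ddx49, Dhx33, Dhx16 and Dhx9 had 5.53% to 7.75%, and Ddx5 had 113 reads (3.03%). In Dhx30 another 36 reads lay in the 5′ untranslated region.

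Within the coding sequence, helicase reads leaned toward the beginning on average. Each coding sequence was cut into 5 segments of equal length, numbered from the start codon, in the 34 members with at least 50 sense and 20 coding reads. Averaged over these members with equal weight, segments 1 to 5 held 31.4%, 25.9%, 13.9%, 8.43% and 20.4% of the coding reads. The 4917 other coding genes held 18.1%, 21.1%, 20.2%, 20.7% and 19.9%. The helicase medians were lower, 18.1% in segment 1 and 18.5% in segment 2, against 4.88% and 9.46% in the other genes. In each of these 2 segments 16 of the 34 members held above 20%, and 28.9% and 35.6% of the other genes. Counting each start position once gave 33.4% in segment 1 and 9.72% in segment 4 of the helicases, against 19.9% and 20.1% in the other genes. Segment 1 was the most-read in 13 of the 34 members (38.2%), and in 18.7% of all such genes. On the same average over genes, the first 300 coding bases held 20.2% of a helicase's coding reads in 13.8% of its coding length, and 18.5% in 21.01% in the other genes.

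**Figure D4:**
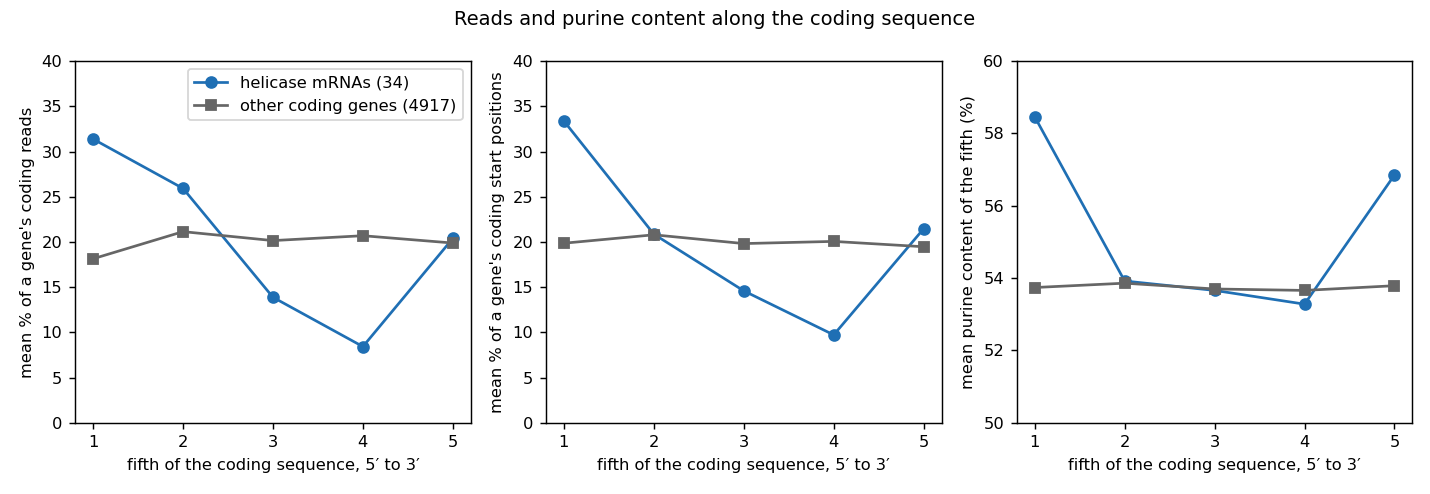
Mean percent of coding reads, mean percent of coding start positions, and mean purine content on an axis from 50% to 60%, in each of the 5 equal segments of the coding sequence, for helicase genes and for other coding genes. Helicase reads are highest in segment 1 at 31.4% and lowest in segment 4 at 8.43%, while other genes stay between 18.1% and 21.1%.

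The average was made of members with very different profiles. Segment 1 held 90.3% of the coding reads of Ddx23, 87.95% of Ddx1, 97.4% of Dhx32 and 75.2% of Ddx46. Segment 2 held 79.5% in Ddx21, 84.5% in Ddx5 and 89.98% in Dhx29. Ddx47 and Ddx52 had their reads in the middle, with 69.7% and 91.6% in segment 3. Ddx10 was the reverse of Ddx23: its segments 4 and 5 held 52.8% and 47.0%, and its segment 1 held 0.129%. Ddx42 had 63.5% of its coding reads in segment 5. Reads that matched several genes equally well, which the counts leave out, fell mostly in segment 2, with 2135 reads against 47 in segment 1 and 309 in segment 4.

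The base composition of helicase coding sequence also varied along its length. Purines made up 58.5% of segment 1 and 56.9% of segment 5, against 53.3% to 53.9% of the segments between. In the other coding genes every segment was between 53.7% and 53.9% purine. The most purine-rich segment was 1 in 16 of the 34 helicases and 5 in 11. Of the 4917 other coding genes it was 1 in 1122 and 5 in 1025. The most-read segment was also the most purine-rich in 12 of the 34 (35.3%), and in 36% of all such genes. In Ddx46 both were segment 1, with 70.4% purine. In Ddx10 segments 4 and 5 were 62.9% and 68.6% purine, and in Ddx23 the most-read segment 1 had 64.2% and segment 2 had 67.3%.

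At the highest start position itself the median purine content of the 30-base window was 58.3% in the 34 members for which a window could be read. This was a median of 4.52 percentage points above the mean of the same transcript, compared with 2.50 points in other coding genes. The window was above its transcript's mean in 23 of the 34 (67.6%), and in 58.8% of all genes with a window. Against the coding sequence alone, over the 30 coding windows, the median difference was 4.35 points, compared with 2.42 in the other genes. By count 18 of the 30 were above the mean (60%), and 58.2% of those of the other genes. The highest contents were 90.0% in Ddx21 and 76.7% in Ddx46, Dhx8 and Ddx25. The lowest were 26.7% in Ddx52, 30% in Dhx30 and 33.3% in Ddx54.

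Weighting every position by its reads gave a median purine content of 58.6% in the 36 members, 5.76 points above their transcripts, and 27 of 36 were higher than their transcript (75.0%). In the other coding genes the difference was 3.21 points and 68.7% were higher. With coding reads set against coding sequence, the differences were 4.95 points in the helicases and 2.16 in the other genes, and 23 of 36 helicases were higher (63.9%), close to the 63.8% of other genes. Ddx21 had 76.2% purine by reads, 21.7 points above its transcript, and Ddx23 66.8%, 10.7 points above. The lowest were Dhx33 with 37.8%, a difference of -11.4 points from its transcript, and Ddx52 with 41.7%, a difference of -12.4 points.

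**Figure D5:**
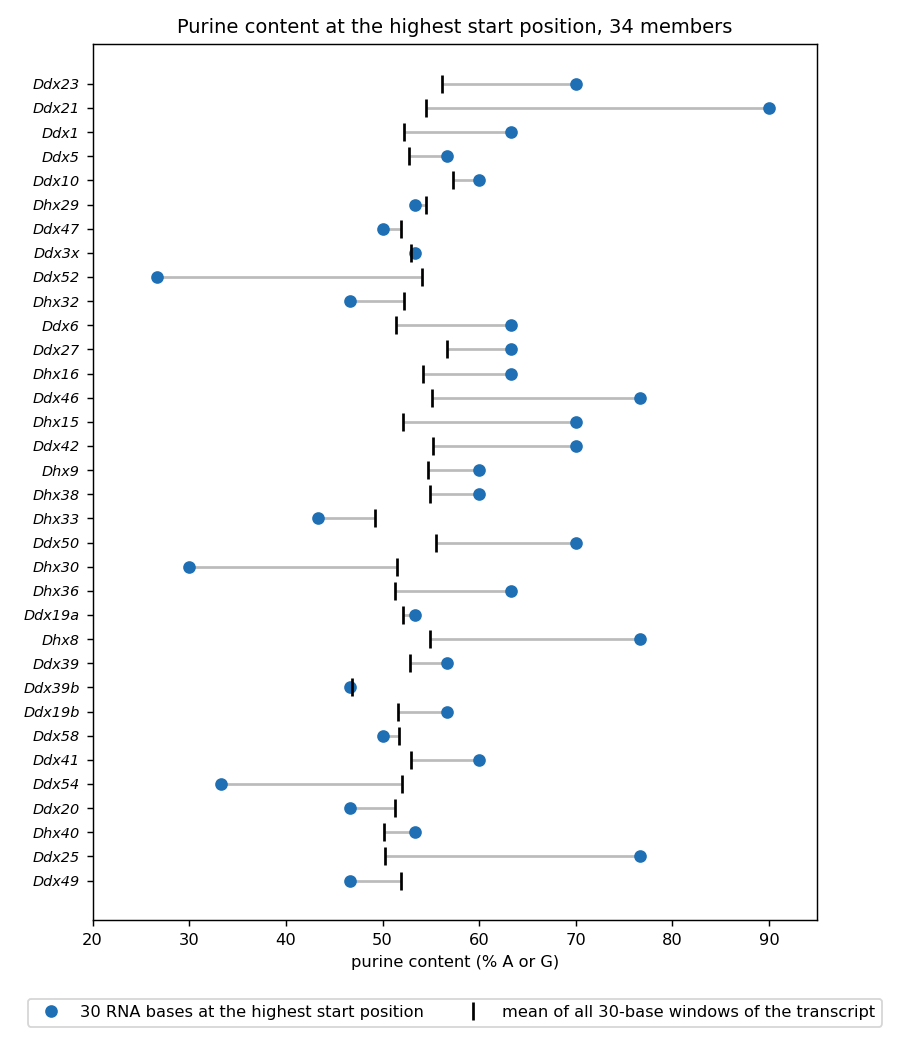
Purine content in percent of the 30-base window at the highest start position of each helicase mRNA, beside the mean of its transcript. Ddx21 lies highest at 90.0% and Ddx52 lowest at 26.7%.

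Reads in antisense orientation were 2734, or 4.33% (4.17 to 4.49) of the reads given to helicase genes, against 12.6% (12.54 to 12.59) for other coding genes. Without Ddx23 the helicase share was 6.53%. Counting each start position once, 11.8% of helicase positions were antisense, against 23.1% in the other genes. By name, the DEAD box genes had 3.26% antisense reads and the DEAH box genes 11.8%. Single members weigh on both shares. Ddx23 held 22429 of the 53459 DEAD box sense reads. Dhx40 and Dhx8 held 153 and 168 of the 931 DEAH box antisense reads. Among the 10 most-read members the share was lowest in Ddx52, with 0 antisense reads, Ddx10 with 6 (0.193%) and Ddx23 with 82 (0.364%). Ddx47 had 23 (1.13%), Dhx29 82 (3.004%), Ddx21 316 (3.23%) and Ddx3x 60 (3.91%). The highest shares of the 10 were those of Ddx17 with 83 reads (5.67%), Ddx5 with 256 (6.41%) and Ddx1 with 371 (7.98%).

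The antisense share lay above 50% in 2 of the 37 members with at least 50 reads of both strands (5.41%), and in 12.4% of all such coding genes. Dhx40 had 153 antisense and 60 sense reads, 71.8% (65.3 to 77.8). Dhx8 had 168 antisense and 114 sense reads, 59.6% (53.6 to 65.4). No annotated gene overlaps either of them on the other strand. Both shares depended on which reads were taken. In Dhx40 only 7 of the 153 antisense reads had no other gene within 1 further mismatch, against all 60 sense reads, and the share was then 10.4% (4.31 to 20.3). Without mismatches it was 33.3% (21.7 to 46.7), while by distinct sequences it was 86.2%. In Dhx8 the share was 59.5% (53.4 to 65.3) with no other gene so near, and 55.7% (48.5 to 62.6) without mismatches. By distinct sequences it was 42.2% (32.4 to 52.3), and by start positions 38.2% (25.4 to 52.3). Neither member reached 50 reads among 36-base reads, nor Dhx40 50 start positions, so those calls could not be made. The next highest shares were 39.4% in Dhx30, 26.8% in Ddx24 and 26.6% in Ddx25. In Dhx30, which Smarcc1 overlaps on the other strand, 71 of the 85 antisense reads started at 1 position. Below 50 reads, Ddx18 had 41 antisense and 8 sense reads, and Ddx56 had 42 and 7.

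Several helicases share sequence with other genes, and their counts are less certain. Of the 3736 reads of Ddx5 only 938 (25.1%) had no other gene within 1 further mismatch, and another 2960 reads matched Ddx5 and other genes equally well, mainly the processed pseudogenes Gm12183 and Gm32526. Among its 938 reads the highest start position was in the 3′ untranslated region, at 3142 bases from the coding start with 385 reads, and not at coding base 672 with 624 reads. The peak sequence shown for Ddx5 therefore cannot be told apart from its near copies. Ddx50 kept 68 of 184 reads (36.96%), Ddx19b 59 of 84 and Ddx19a 81 of 114. By contrast Ddx23 kept 22423 of 22429 reads and Ddx21 9372 of 9460, with their highest positions in place. Dhx9 had 42797 reads shared with other genes, which are not in its 561 reads. Of these, 39893 (93.2%) fell at 1 position of an isoform with a retained intron. Shared reads also outnumbered the counted ones in Ddx54 (3595 against 72), Dhx30 (1580 against 131) and Ddx39 (939 against 103). The same held in Ddx20 (459 against 60) and Ddx24 (342 against 145), among others. The regions and peaks given for these members leave the shared reads out.

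Ddx3x and Ddx3y, the X- and Y-linked copies, had their highest position at the same place. In both it was coding base 251, with 232 of 1476 reads in Ddx3x and 12 of 40 in Ddx3y. The 232 Ddx3x reads came from 25 distinct sequences, but the 12 Ddx3y reads from only 1. Since PCR copies cannot be told apart, the Ddx3y position rests on that 1 sequence. In Ddx3x the position also depended on read length. The highest position of 36-base reads, with 10 reads, lay 737 bases from that of 40-base reads, with 225. The 2 windows are shown because they let Ddx3x and Ddx3y be told apart.
Ddx3x: tgattcAAGAGGGAAGtctagcttctttgg
Ddx3y: tgattccAGAGGGAAGcccaattatttcag
The Ddx3y window is at chrY:1280337-1280366 on the minus strand. From Ddx3x to Ddx3y it differs by A7C, T17C, T19C, G21A, C22T, T24A, C25T, T28C and G29A, with positions counted from 1 at the 5′ end of the window. All 12 Ddx3y reads at this position matched Ddx3y without a mismatch and had no other gene within 1 further mismatch. The purine run was 9 bases in Ddx3y and 10 in Ddx3x, and both end at the same base.

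The table holds reads of 36 and of 40 bases, and the helicase profiles were compared between them. Reads of 36 bases made up 14.2% of helicase reads and 10.9% of the reads of other coding genes. Ddx23 alone gave 5216 of the 8548 helicase reads of 36 bases, so the helicase share rests largely on that member. Among members with at least 50 sense reads the share ran from 0.775% in Dhx36 to 48.6% in Ddx54, with 23.3% in Ddx23 and 5.12% in Ddx21. The highest start position was compared in 27 members with at least 20 reads of each length. It was identical in 9, within 25 bases in 15 including those, and farther apart in 12. Some of these 12 rest on few reads, since the highest position of 36-base reads had 3 in Ddx24 and 4 in Ddx42. The 36-base reads started at 1412 positions, and 40-base reads also started at 957 of them (67.8%). Matching values of other genes were not taken, so these counts have no background beside them. No label says which libraries the lengths belong to.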

How the data were processed

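The authors deposited 1 table of distinct read sequences with the count of each, with no header and no scaling. No source used here names the aligner. The table's name has abbreviations that may refer to its material and to filters, but no label or header explains them and they were not used; per the submitters' processing notes the build was mm9, which was not used here, since the deposited table holds sequences and counts alone. The table, of 6540936 sequences, was treated as 1 pool drawn from an unknown part of the 7 libraries, so tests between libraries were left out.

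The leading 6 bases of each read, which mismatched in 46.8% (base 1) to 9.74% (base 6) of helicase sequences of 40 bases, were dropped. Reads with at least 20 bases left were aligned with bwa 0.7.19, allowing 2 mismatches and no gaps, to the transcripts of GENCODE M21 on GRCm38. A read of an mRNA is its reverse complement, and strand here is that of the RNA. A read was counted for a gene if that gene alone held its best sense placements (antisense placements on opposite-strand overlapping genes were ignored), or if all its best placements were antisense to 1 gene. Introns and intergenic sequence were not searched. The cells carry part of a M. castaneus genome, so strain differences can use up mismatches. Positions refer, for each gene, to the complete coding transcript with most sense reads, and start positions in coding sequence took precedence over untranslated regions, with the stop codon counted as coding.

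Percentages have exact Clopper-Pearson and counts exact Poisson 95% intervals (scipy 1.17.1), and the interval of a count of 0 reaches 3.69 counts. The rule for an antisense share above 50% was a lower interval bound above 50%. Values are given for the 10 members with most sense reads, the 5 with the highest antisense share and members with 0 reads, and all other members by reads; peak sequences are those of the 8 most-read members with a coding peak, with Ddx3y added after its values were seen. The members, roles and lists were chosen with earlier results of these data known. Alternatives changed the weight of a read, mismatches, length, uniqueness, minimum, window and transcript.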

Additional observations from a re-analysis of the deposited data

How the results depend on the processing

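Leaving out Ddx23 was an alternative chosen after seeing the data. The 60410 sense reads were 15354 when each distinct sequence counted once, 53793 with no mismatch, 59449 with at least 30 matched bases, 56720 with no other gene within 1 further mismatch, 8548 in 36-base reads, 50901 in 40-base reads, 2876 by start positions, 115263 with reads of several genes and 37981 without Ddx23. Dhx9 alone had 42797 reads of several genes. Of those, 39893 fell at 1 position of an isoform with a retained intron. Members with at least 50 reads, 36, were 19 in 36-base reads, and 20 had at least 200. The antisense share, 4.33%, was 4.72% by distinct sequences, 3.52% with no mismatch, 3.72% with no other gene near, 4.57% in 36-base reads, 11.8% by positions and 6.53% without Ddx23. The 2 members above 50% became 1 by distinct sequences and with no other gene near, and 0 with no mismatch. They became 4 with a minimum of 20 reads, which adds Ddx18 and Ddx56. In 36-base reads and by positions 0 were called, but Dhx40 was then below the minimum of 50. Its share was 93.75% (82.8 to 98.7) of 48 reads and 76.9% (60.7 to 88.9) of 39 positions. Dhx8 also had only 48 reads of 36 bases, 58.3% (43.2 to 72.4) of them antisense. The coding share, 93.2%, was 93.8% by distinct sequences, 92.9% with no other gene near, 95.7% and 92.8% in 36- and 40-base reads, 83.5% by positions and 89.3% without Ddx23. The median share at the highest position, 17.5%, was 11.5% by distinct sequences and 14.5% in 36-base reads. Members with that position in coding sequence, 30, were 17 in 36-base reads and 17 at 200 reads, and those within 300 bases of the coding start, 8, were 4 and 5. The median purine content, 58.3%, was 66.7% in the 6 leading bases alone. Among the remaining alternatives, counts stayed within 1.5 times the value given, though by distinct sequences 25 members had at least 50 and 22 had a coding highest position, and 11 lay within 300 bases of the coding start at a minimum of 20 reads. The median share at the highest position was up to 20.97%. No paired analysis was possible because the pooled count column carries no replicate, and no library could be left out. Depth limits members below 50 reads, whose values rest on few reads. The cause of these shifts was not tested.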
